A study of Gallus gallus with 4 samples.

Results

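Chromosome Z, the sex chromosome that both sexes of birds carry, held 239 of the 8375 HIF1α peaks listed for embryonic chick lens cells. A peak is a stretch of genome where DNA fragments released by an antibody against HIF1α piled up above the level expected from a control antibody (IgG). The 239 regions were taken by chromosome alone, at every distance from a gene, and were set against the 4917 peaks of chromosomes 1 to 5, the largest autosomes. The study measured HIF1α-DNA binding complexes by CUT&RUN, where a nuclease tethered to the bound antibody cuts out the DNA that a protein occupies. It used 4 libraries, 2 with the HIF1α antibody and 2 with IgG. All 4 came from primary lens cells of E10 White Leghorn chick embryos, cultured with 1 mM DMOG for 4 h. The 2 cell pools were each split between both antibodies, and fragments of the 2 replicates were pooled before peaks were called, so each peak has 1 pooled value and no replicate error. No library of untreated cells was analysed here, DMOG and the IgG control are shared by every value below, and neither the lens identity of the cells nor the sex of the embryos can be read from a list of peaks.

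HIF1α is the oxygen-regulated subunit of a transcription factor that switches on genes for glycolysis, blood vessel growth and the turnover of mitochondria. When oxygen is plentiful, prolyl hydroxylases that depend on 2-oxoglutarate mark HIF1α for destruction. DMOG mimics 2-oxoglutarate, blocks these enzymes and lets HIF1α accumulate. Male birds carry a pair of Z chromosomes and females a single Z beside a W, and most Z genes are not fully compensated for this difference in birds.

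Peaks were sparse on Z. The 239 peaks spread over 82.5 Mb, measured to the end of the last peak (galGal6), which is 2.90 peaks per Mb (95% Poisson interval 2.54 to 3.29). Chromosomes 1 to 5 held 8.07 peaks per Mb over 609 Mb, and single chromosomes among them ranged from 7.54 on chromosome 2 to 9.01 on chromosome 5. The density on Z was 0.359 of that on chromosomes 1 to 5 (exact 95% interval 0.314 to 0.409, two-sided exact conditional binomial test, p = 1.24e-73). The median distance between neighbouring peaks was 222 kb on Z and 69.2 to 91.9 kb on chromosomes 1 to 5. Each peak counts as independent here and all come from the same pooled libraries, so tests and intervals cover counting error only and not the spread between cultures. Chromosome W held 3 listed peaks, at backgrounds of 97.3, 593 and 807 fragments, and how many copies of Z the cultured cells carried was not measured. The part that copy number plays in the density was not tested.

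Counting by genes gave the same order. The nearest symbol matched a RefSeq gene for 168 of 239 Z peaks, and a protein-coding one for 159. On chromosomes 1 to 5 it matched a RefSeq gene for 3626 of 4917 peaks. Unmatched peaks add no gene to the shares that follow. Of 906 protein-coding genes that RefSeq (GRCg7b) places on Z, 123 were the gene nearest to at least 1 peak, a share of 13.6% (95% Wilson interval 11.5 to 16.0). The share was 27.5% on chromosomes 1 to 5 (2034 of 7384 genes) and ran from 25.4% to 30.8% over the single chromosomes. A peak within 3 kb of the transcription start site (TSS) was found for 16 Z genes, or 1.77% (interval 1.09 to 2.85), against 4.85% on chromosomes 1 to 5, where single chromosomes ranged from 4.07% to 5.39%. With all peaks counted, matched or not, Z had 26.4 peaks per 100 coding genes and chromosomes 1 to 5 had 66.6.

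**Figure D1:**
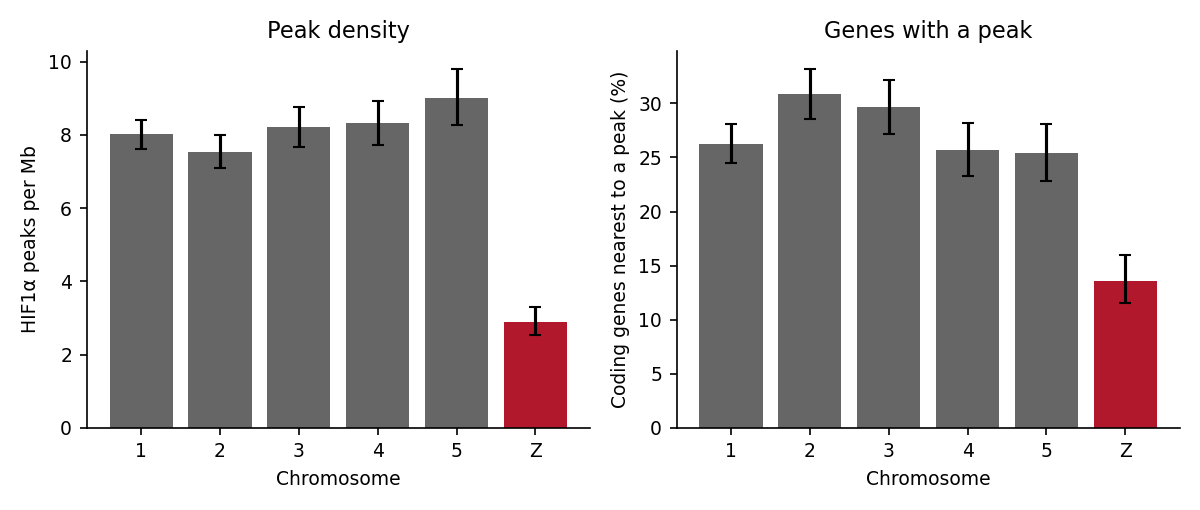
Peaks per Mb (left) and the percentage of protein-coding genes that are nearest to a peak (right) for chromosomes 1 to 5 in grey and Z in red. Bars are pooled values, error bars are 95% Poisson (left) and Wilson (right) intervals of counting error. Z stands at 2.90 peaks per Mb and 13.6% of genes, below each of the 5 autosomes in both panels.

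The low density ran the length of the chromosome. In consecutive windows of 10 Mb from the start of Z the counts were 27, 32, 41, 31, 38, 28, 24 and 16 peaks, with 2 more in the last 2.49 Mb. The densest Z window, the third, reached 4.10 peaks per Mb. The 58 full windows of chromosomes 1 to 5 held 5.10 to 11.0 peaks per Mb with a median of 7.90, and 0 of the 58 lay at or below the densest window of Z. Within Z the windows were less even than a uniform spread (chi-square 18.8 on 8 degrees of freedom, p = 0.0157). The chi-square per degree of freedom was 2.36 for the whole of Z and 1.08 to 2.32 for chromosomes 1 to 5. Over the first 70 Mb alone, a cut chosen after the counts were seen, it was 1.17 (chi-square test, p = 0.319). That cut leaves out the sparsest windows, so its lower value cannot show where the unevenness lies. The density ratio of the first 70 Mb to chromosomes 1 to 5 was 0.391.

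**Figure D2:**
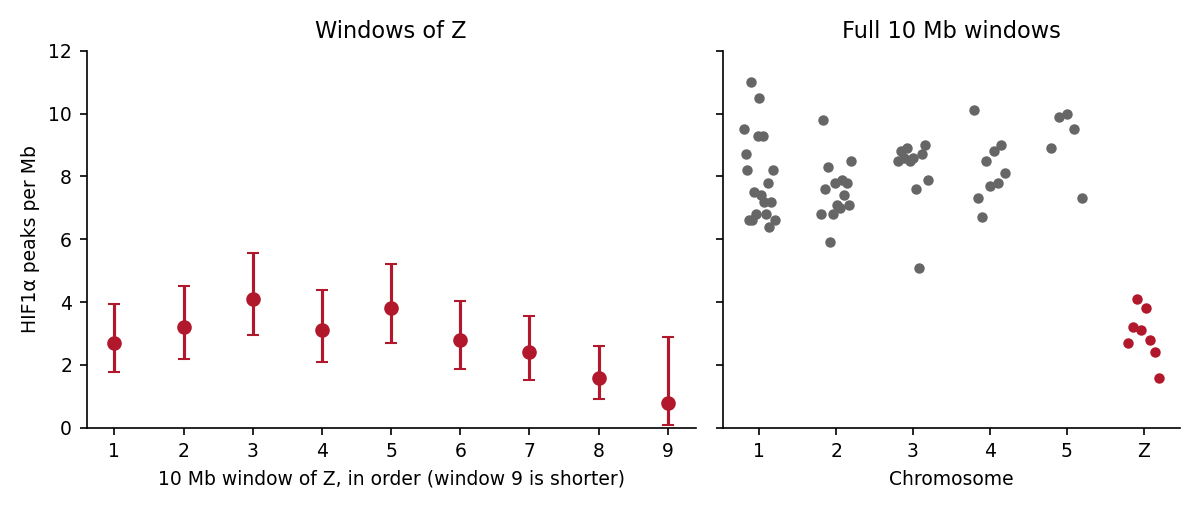
Peaks per Mb in the 10 Mb windows of Z in order, with 95% Poisson intervals (left), and in every full 10 Mb window of chromosomes 1 to 5 (grey) and Z (red) (right). The highest Z window, at 4.10, lies below the lowest autosomal window, at 5.10.

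The third window, from 20 to 30 Mb, held the most peaks close to genes. Of its 41 peaks, 8 lay within 3 kb of a TSS, and the median distance was 14548 bp. PIK3R1, F2RL1, COL4A3BP and FAM169A are the nearest genes of 5 of these 8. The sixth window, from 50 to 60 Mb, had 0 of 28 peaks within 3 kb and a median distance of 52691 bp, the longest of the 8 full windows. The longest stretch without a peak measured 2769 kb and ran from 75342196 to 78110920. A further 2344 kb without a peak preceded the last peak of the chromosome, at 82485765, and 1920 kb separated a peak nearest to PDE4D from one nearest to SREK1IP1. Whether these stretches could be mapped at all was not analysed here.

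Distances from genes on Z could not be told from those of chromosomes 1 to 5 together. On Z 24 peaks (10.0%) lay within 3 kb of a TSS, 34 (14.2%) at 3 to 10 kb, 132 (55.2%) at 10 to 100 kb and 49 (20.5%) beyond 100 kb. The share within 3 kb was 9.82% on chromosomes 1 to 5 (odds ratio 1.02, 95% interval 0.636 to 1.59, Fisher's exact test, adjusted p = 0.911 over 7 share comparisons). Within 10 kb the shares were 24.3% and 25.5% (odds ratio 0.938, Fisher's exact test, adjusted p = 0.911), and within 100 kb 79.5% and 80.2% (odds ratio 0.960, exact test, adjusted p = 0.911). Against chromosome 5 alone the share within 100 kb was lower on Z (odds ratio 0.588, Fisher's exact test, adjusted p = 0.0456). The interval for 3 kb leaves room for a share on Z well below or above that of the autosomes. The median distance was 34359 bp on Z (95% interval 26728 to 44227) and 30443 bp on chromosomes 1 to 5, where single medians ran from 19998 bp on chromosome 5 to 33774 bp on chromosome 1. The interval of chromosome 5 (16267 to 22786) did not overlap that of Z. The farthest Z peak was 553128 bp from its nearest TSS.

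**Figure D3:**
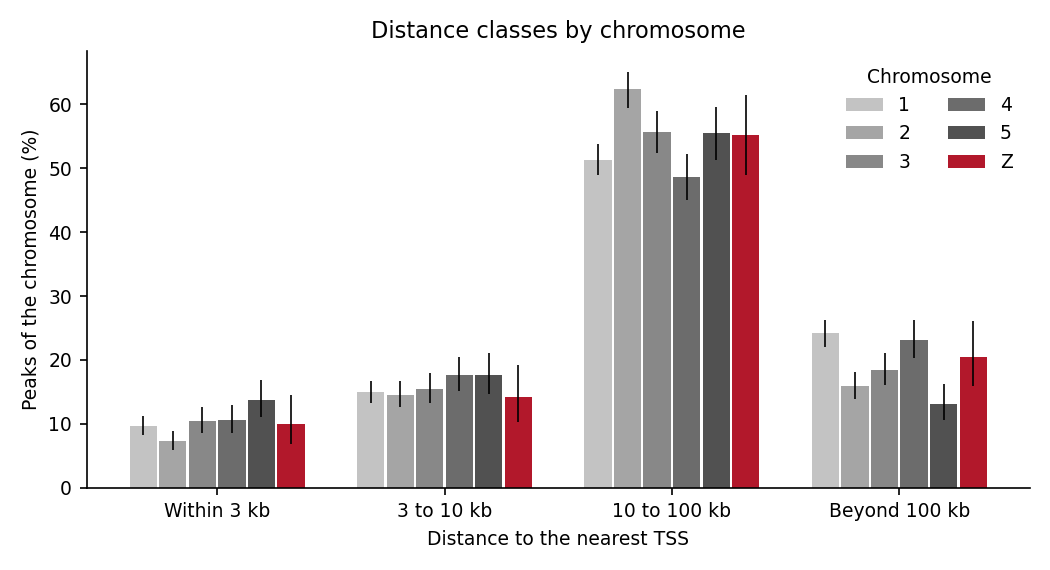
Percentage of each chromosome's peaks by distance to the nearest TSS, for chromosomes 1 to 5 in grey and Z in red, with 95% Wilson intervals. The red bars, at 10.0%, 14.2%, 55.2% and 20.5%, have intervals that overlap those of several autosomes in every class.

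The lower density was seen in each distance class. The ratio of Z to chromosomes 1 to 5 was 0.367 within 3 kb, 0.326 at 3 to 10 kb, 0.362 at 10 to 100 kb and 0.371 beyond 100 kb. Its point values spanned a wider range between classes of signal. Pileup, the number of HIF1α fragments over the summit of a peak, started at 7 in the list. The ratio was 0.438 (0.309 to 0.606) for peaks with a pileup of 7, 0.369 for 8 and 0.293 (0.215 to 0.389) for 9. It was 0.300 (0.227 to 0.390) for 10 to 12 and 0.446 (0.240 to 0.763) for 13 to 19. For pileups of 20 to 39 it was 0.731 (0.340 to 1.40) and for 40 or more 0.634 (0.339 to 1.09), with 10 and 14 peaks on Z, so at this depth those classes could not be told from equal density. Their intervals also held the ratio of all peaks, 0.359. No test of the differences between pileup classes was made.

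**Figure D4:**
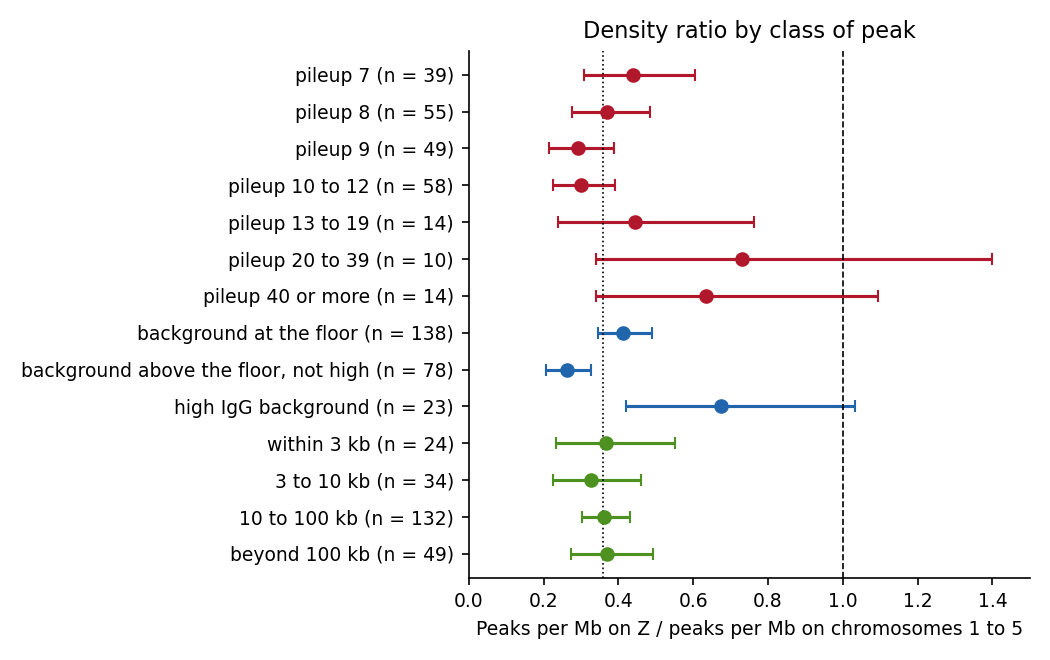
Ratio of peak density on Z to that on chromosomes 1 to 5, with exact 95% intervals, by pileup (red), background (blue) and distance to the TSS (green). The dotted line is the ratio of all peaks, 0.359, and the dashed line equal density, which only the intervals of the pileup classes of 20 and above and of the high IgG class reach.

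Most Z peaks were small and narrow. The median pileup was 9 fragments (range 7 to 107), with 39 peaks at 7, 55 at 8 and 49 at 9. Lengths ran from 105 to 688 bp with a median of 130 bp, beside 136 bp on chromosomes 1 to 5. Peaks of at least 150 bp made up 32.6% of those on Z and 37.2% of those on chromosomes 1 to 5 (odds ratio 0.819, interval 0.613 to 1.09, Fisher's exact test, adjusted p = 0.397). The median fold enrichment over background was 3.92 (range 2.02 to 28.0). A −log10 q of at least 3 was reached by 68 Z peaks, 28.5%, beside 26.5% of all 8375 listed peaks and 23.3% to 27.4% on the single autosomes. Pileups of 10 or more were seen in 96 Z peaks, 40.2%, against 39.1% (odds ratio 1.05, interval 0.793 to 1.37, Fisher's exact test, adjusted p = 0.911). At a pileup of 13 or more the shares were 15.9% and 10.1% (odds ratio 1.69, Fisher's exact test, adjusted p = 0.0220), but without peaks of high IgG background they were 6.94% and 5.23% (odds ratio 1.35, Fisher's exact test, adjusted p = 0.550). Every peak of high IgG background had a pileup of 13 or more, so that removal took out only counted peaks and left 15 on Z. The loss of the call is therefore in part built in.

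High IgG background was more common under Z peaks than under those of chromosomes 1 to 5 together, but its share was near that of the whole list. Each peak carries the fragment number expected without HIF1α, which cannot fall below a genome-wide floor of 1.30 fragments and rises above it where IgG fragments collect. High IgG background, over 3 times the floor, was found under 23 Z peaks (9.62%) and under 5.13% of those on chromosomes 1 to 5 (odds ratio 1.97, interval 1.20 to 3.10, Fisher's exact test, adjusted p = 0.0335). Single autosomes ranged from 2.77% to 8.15%, and against chromosome 1 alone the odds ratio was 1.20 (Fisher's exact test, adjusted p = 0.790), and against chromosome 3 alone 2.04 (adjusted p = 0.0619). With peaks limited to −log10 q values of 3 and above, the odds ratio was 1.79 (Fisher's exact test, adjusted p = 0.495). Backgrounds at the floor were also common on Z, at 57.7% against 50.2% (odds ratio 1.36, interval 1.04 to 1.78, Fisher's exact test, adjusted p = 0.0846). At −log10 q values of 3 and above this odds ratio was 0.926 (Fisher's exact test, adjusted p = 0.961). Without peaks of high IgG background the difference passed (odds ratio 1.58, Fisher's exact test, adjusted p = 0.00986). A peak cannot be in both classes, so that removal by itself raises the floor share more on Z, where high IgG background was more common. The class between them was thin, with 78 Z peaks and a density ratio of 0.262 (0.206 to 0.328), beside 0.413 (0.345 to 0.491) at the floor and 0.674 (0.419 to 1.03) for high IgG.

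These 23 regions supplied nearly all tall peaks of Z. Their median pileup was 41 fragments against 9 for the rest, and their median length 167 bp against 128 bp. A peak over a high background needs more fragments to pass the q limit, so the contrast in pileup is not a separate result. On Z and on chromosomes 1 to 5 alike, every peak of high IgG background had a pileup of 13 or more. Of the 14 Z peaks with a pileup of 40 or more, 13 had high IgG background. The exception was nearest to EDIL3. The lowest fold enrichment of the 23 was 2.02. Of the 23, 3 lay within 3 kb of a TSS and 8 beyond 100 kb, beside 10.0% and 20.5% of all Z peaks. These differences were not tested.

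**Figure D5:**
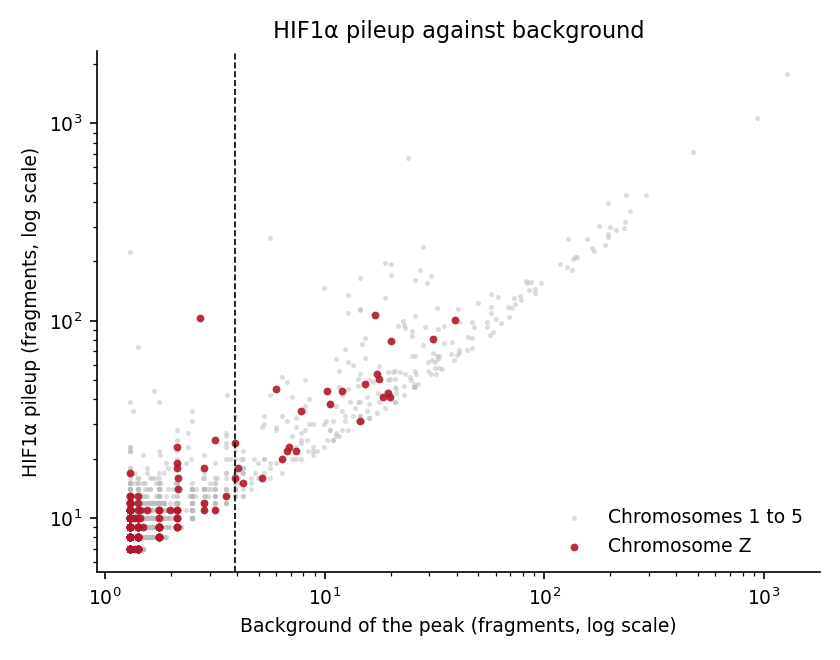
HIF1α pileup against the background of each peak, in fragments on logarithmic axes, for chromosomes 1 to 5 (grey) and Z (red). The dashed line is 3 times the floor, and of the red points with a pileup of 40 or more only the one at a pileup of 103, nearest to EDIL3, lies left of it.

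The strongest peak of Z lay far from any TSS. It spanned 62123524 to 62123643 (galGal6) and was 239720 bp from the TSS of EDIL3, which encodes a secreted matrix protein that binds integrins. Its pileup of 103 fragments stood over a background of 2.71, a fold enrichment of 28.0 with a −log10 q of 116. No other Z peak passed a fold of 7.84. FAM174A was nearest, at 144431 bp, to the tallest peak, from 51051872 to 51052283, with 107 fragments over a background of 17.0 and a fold of 6.01. Of the 10 peaks with the highest −log10 q, 6 had high IgG background, 4 lay beyond 100 kb and 1 lay within 3 kb. The 10 highest by fold shared 6 peaks with those by −log10 q and 3 with those by pileup, and 3 peaks were in all of these lists, among them those nearest to EDIL3 and FAM174A.

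The single peak within 3 kb among the 10 of highest −log10 q belonged to ACAA2, a thiolase of mitochondrial fatty acid oxidation. It ran from 983078 to 983228, 2450 bp from the TSS, and was the first peak of the chromosome. It held 23 fragments over 2.12, a fold of 7.69 with a −log10 q of 12.3. A comparable fold of 7.84 was found 37805 bp from WDR70, a WD repeat protein, with 17 fragments over a background at the floor. The peak 45573 bp from RNF165, a RING finger ubiquitin ligase, had 25 fragments and a fold of 6.22. At 49682 bp from SLC24A2, a potassium-dependent sodium-calcium exchanger of photoreceptors and neurons, the pileup was 19 and the fold 6.41. SPINK4, a secreted protease inhibitor, was 15241 bp from a peak of 13 fragments and a fold of 6.09.

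Other tall peaks stood on high IgG background. FYB, an adaptor protein of T cells and platelets, was nearest to 2 of them, with 101 fragments over 39.3 (fold 2.53) at 17281 bp and 48 over 15.2 (fold 3.02) at 5138 bp. ANXA1, a calcium-dependent phospholipid-binding protein, was nearest to 81 fragments over 31.1 (fold 2.55) at 144128 bp. The peak 56332 bp from ZNF608, a zinc finger gene, had 44 over 10.3, a fold of 4.00. Genes known here only by identifier were nearest to 3 more, ENSGALG00000028394 with 79 fragments and a fold of 3.78, ENSGALG00000054200 with 54 and 3.00, and ENSGALG00000047240 with 44 and 3.45. In these peaks the IgG libraries had also collected fragments well above the floor, and fold enrichments ran from 2.53 to 4.00.

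Most peaks at promoters were small, as were most peaks elsewhere on Z. The 24 peaks within 3 kb had pileups of 7 to 51 with a median of 10, beside a median of 9 for the farther peaks. Of the 24, 11 had a background at the floor and 3 a high one. A −log10 q of 3 or more was reached by 10 of the 24 (41.7%) and by 58 of the 215 farther peaks (27.0%), a difference that was not tested. Within 1 kb lay 12 Z peaks (5.02%, beside 4.60% on chromosomes 1 to 5). High IgG background was found under 0 of these 12, beside 9.62% of all Z peaks. The peak 192 bp from ENSGALG00000048460 came close, with a background of 3.890 fragments against a limit of 3.892. Of the 12 peaks, 2 covered a TSS.

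One of these TSSs was that of PIK3R1, the regulatory subunit of phosphoinositide 3-kinase. The peak ran from 21648357 to 21648541 with 10 fragments over 1.41, a fold of 4.56 and a −log10 q of 2.88. A second peak lay 2153 bp from the TSS of another PIK3R1 transcript, with 8 fragments and a fold of 3.92, and another at 14548 bp, which made it the only gene with a symbol that had 2 peaks within 3 kb. The other covered TSS was that of LYRM7, an assembly factor of respiratory complex III, which the list joins with gga-mir-1456. That peak, from 44908889 to 44909011, had 10 fragments over the floor, a fold of 4.79 and a −log10 q of 3.07.

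NADK2, the mitochondrial NAD kinase, had the highest pileup within 1 kb of a TSS. Its peak ran from 11023305 to 11023473, 43 bp from the TSS, with 18 fragments over 2.12, a fold of 6.09 and a −log10 q of 7.46. At 15 bp from the TSS of ENSGALG00000004311 the peak from 23332365 to 23332474 had 13 fragments over the floor, also a fold of 6.09. MRPL17, a protein of the large mitochondrial ribosomal subunit, was 142 bp from a peak at 9298888 to 9299009 with 9 fragments and a fold of 4.35. COL4A3BP, the ceramide transfer protein, was 285 bp from one at 23904880 to 23905015 with the same pileup and fold. LIPG, a lipase of the endothelium, was 478 bp from a peak at 1068952 to 1069058 with 9 fragments and a fold of 4.14. The remaining 5 within 1 kb were nearest to the small RNA family RF00004 (106 bp, fold 3.92) and to 4 genes known by identifier, ENSGALG00000048460 (192 bp, 3.48), ENSGALG00000015032 (723 bp, 3.48), ENSGALG00000048329 (838 bp, 4.49) and ENSGALG00000017706 (912 bp, 4.35).

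Between 1 and 3 kb the peaks with most fragments were not those with most enrichment. CARTPT, a neuropeptide precursor, was 1777 bp from a peak of 51 fragments over 17.7, a fold of 2.78. ZFAND5, a zinc finger protein that activates the proteasome, was 1150 bp from one of 35 over 7.78, a fold of 4.10. ACOT12, an acetyl-CoA thioesterase, had only 12 fragments 2222 bp away but over the floor, which gave a fold of 5.66. The peak 2643 bp from FAM169A was the longest of Z at 688 bp, with 24 fragments and a fold of 5.11. Its background of 3.890 fragments lay just under the limit for high IgG background, 3.892. TYRP1, an enzyme of melanin synthesis, was 1231 bp from 18 fragments at a fold of 4.96. F2RL1, a protease-activated receptor, was 2645 bp from 10 fragments at a fold of 4.56, and ADAMTS12, a secreted metalloprotease, 2781 bp from 10 at 4.79. HABP4 and WDR70 had 8 and 9 fragments, at folds of 3.92 and 3.20. A second peak of ENSGALG00000048460, 928 bp from the first and with a fold of 3.05, made the only pair of Z peaks within 1 kb of each other. This second peak had 15 fragments over 4.24, a high IgG background.

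The 239 peaks named 180 nearest symbols, 135 of them once, 34 for 2 peaks each and 11 for 3 or more. Gene symbols accounted for 163 peaks, identifiers without a symbol for 56, small RNA families for 11 and microRNAs alone for 9. Identifiers made up 23.4% of Z peaks and 12.6% to 22.4% of those on the single autosomes. RF02271, a small RNA family found nearest to peaks on 16 chromosomes, had 5 Z peaks at 17911 to 128697 bp. SETBP1, a DNA-binding protein, had 4 peaks from 6227 to 168967 bp with folds up to 4.35. ISL1, a homeodomain factor of motor neurons, heart and retina, had 3 peaks at 56295 to 228753 bp with folds up to 5.66. EFNA5, an ephrin ligand, had 3 at 29949 bp or more with the same highest fold. PTPRD, a receptor phosphatase, MRPS30, a mitochondrial ribosomal protein, and C9orf3, joined with ENSGALG00000018355, also had 3 each, as did ENSGALG00000046715 and ENSGALG00000049580. Peaks that share a nearest gene are not independent evidence for it.

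A list of 18 Z genes was drawn up for hypoxia and 2-oxoglutarate metabolism. Nearest to a peak were 6 of the 18 listed genes (33.3%), beside 13.6% of all Z coding genes, and PIK3R1 had a peak within 3 kb. TMEM38B, an endoplasmic reticulum potassium channel, followed at 7758 bp with 9 fragments. PAM, a copper- and oxygen-dependent enzyme that amidates peptides, was 16735 bp from a peak with a fold of 3.61. VLDLR, a lipoprotein receptor, had the highest fold of the 6, 5.22 with 11 fragments, at 34743 bp. FST, the activin antagonist follistatin, and HSD17B4, an enzyme of peroxisomal fatty acid oxidation, were 46704 and 105791 bp away with folds of 3.73 and 3.48. CA9, LOX, PLIN2 and KDM4C, which are HIF1α targets in mammalian cells, were nearest to none of the 239 peaks. TMEM38B and FST act in neither hypoxia nor 2-oxoglutarate metabolism as far as is generally known, and PIK3R1 and HSD17B4 are described here by other functions. The 33.3% is therefore a share of this list and not of genes of hypoxia or 2-oxoglutarate metabolism. The share of any list here is a description with no test, and the lists were chosen with earlier results of these data known.

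Of 24 Z genes listed for lens and eye, 10 (41.7%) were nearest to a peak and 0 had one within 10 kb. The shares of all Z coding genes were 13.6% and 4.19%. All 10 also stand in other lists here, among them FST, PTPRD, UNC13B and EDIL3. The shares of these lists are therefore not separate results, and what the 10 genes do in the lens was not measured. NR2F1, a nuclear receptor of eye and brain development, was closest, at 10659 bp, over a high IgG background of 14.5 with a fold of 2.06. EFNA5, needed for the ordered packing of mouse lens fibres, was 29949 bp from 12 fragments at a fold of 5.66. CNTFR, the receptor subunit of ciliary neurotrophic factor, and RORB, a nuclear receptor of the retina, were 45558 and 50570 bp from peaks with 10 fragments and a fold of 4.79. TRPM3, a cation channel gene that hosts mir-204, was joined with gga-mir-204-1 for 2 peaks at 62163 and 64336 bp with folds up to 5.22. TDRD7 and TMOD1, genes of lens integrity, were nearest to none.

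In the list drawn up for signalling the count was 16 of 41 (39%), with 2 within 3 kb, PIK3R1 and F2RL1, beside 13.6% and 1.77% of all Z coding genes. Receptors included F2RL2, related to F2RL1, at 6842 bp with a fold of 4.56, NTRK2, the receptor of brain-derived neurotrophic factor, at 19114 bp with 4.33, and ROR2, a receptor for Wnt ligands, at 33009 bp with 4.79. Ligands were NRG1 at 12645 bp with 4.35 and FGF10 at 33558 bp with 3.48. Downstream, the kinase CAMK4 lay 3478 bp and the G protein subunit GNAQ 41194 bp from peaks with folds of 3.92 and 4.35. PDE4D, which breaks down cyclic AMP, was 26728 bp from one with 5.22. FAM174A and CNTLN, a centriole protein, stand in this list without being signalling genes, and both are among the 16. The 39% is therefore a share of this list and not of signalling genes. The receptor genes GHR, PRLR, LIFR and IL6ST and the kinase JAK2 were nearest to none.

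Regulators of transcription and chromatin gave 11 of 32 (34.4%), with 0 within 3 kb, beside the same 13.6% and 1.77%. Closest were ZNF366, a zinc finger gene, at 3982 bp with a fold of 4.56 and SETBP1 at 6227 bp. RFX3, a factor for cilia genes, was 45755 bp away with 3.61, MEF2C, a factor of muscle and neurons, 135582 bp away with 3.73, and the corepressors TLE4 and TLE1 80739 and 116085 bp away with 3.48 and 2.02. TLE1 was another peak of high IgG background, with 41 fragments over 19.8.

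Matrix, protease and adhesion genes numbered 8 of 21 (38.1%), beside 13.6% of all Z coding genes. ADAMTS12 had the closest peak, and PCSK1, a prohormone convertase, and ADAMTS6, a metalloprotease, followed at 5707 and 7883 bp with folds of 3.92 and 5.22. CNTNAP4, a neuronal adhesion protein, was 11899 bp and HAPLN1, a link protein of hyaluronan, 82066 bp from peaks with a fold of 4.35. Of listed synapse, channel and neuronal genes, 15 of 25 (60.0%) were nearest to a peak, beside the same 13.6%, and CARTPT had a peak within 3 kb. The lists were chosen with earlier results of these data known, so their shares cannot be ranked or read as enrichment. SLC1A3, a glutamate transporter of glia, was 5644 bp from 8 fragments at a fold of 3.92, SLC12A2, a sodium-potassium-chloride cotransporter, 54708 bp from 9 at 4.35, and LINGO2 529176 bp from 8 at 3.92. ENC1, TRPM6, RIT2 and UNC13B lay 28140 to 58426 bp from peaks with folds of 3.31 to 3.92.

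Of 25 Z genes listed as having a surviving partner on W, 2 (8.0%) were nearest to a peak, near the 13.6% of all Z coding genes. CHD1, a chromatin remodeller, was among them. CHD1 was 83908 bp from 23 fragments over 6.87, a high IgG background, at a fold of 3.05. The other 23, such as HINT1, SMAD2, SPIN1 and VCP, were nearest to none. Of 8 genes listed for sex determination 1 (12.5%), FST, was nearest to a peak, also near the 13.6% of all Z coding genes. DMRT1, the gene on which male development in birds depends, was nearest to none. HINT2 stands in both lists through the matching of names, and whether it belongs in either was not checked.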

How the data were processed

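HIF1α and IgG CUT&RUN libraries (2 of each, all from lens cells treated with DMOG) were analysed as 1 deposited peak list. Per the study's methods, the authors trimmed reads with Trimmomatic, aligned them with Bowtie2 to galGal6, kept short fragments and removed mitochondrial and low-complexity reads with SAMtools, pooled the replicates and called narrow peaks with MACS2 against pooled IgG at q below 0.05 before naming the nearest Ensembl TSS. Tool versions and library depths are not given in the sources used here. The deposited pileup is a signal that the study describes as scaled to library size, but recomputed Poisson p-values matched the deposited −log10 p within 0.00165 for 8369 peaks when pileup was read as whole fragments. The deposited fold enrichment is a ratio of pileup plus 1 to background plus 1, from which the background was recovered, and the deposited −log10 q was used as given. With 0 columns per library, no value has a replicate.

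Peaks on Z were compared with those of chromosomes 1 to 5 using Python 3.11.15, pandas 2.3.3 and scipy 1.17.1. Density was tested with an exact conditional binomial test, 7 shares with two-sided Fisher's exact tests and Benjamini-Hochberg adjustment, and evenness over 10 Mb windows with chi-square. The scripts were tested on simulated data. Intervals are 95%. Nearest symbols were matched to RefSeq (GRCg7b) for names and chromosomes only, since its coordinates differ from galGal6. Alternatives changed the thresholds of −log10 q, fold, pileup, length, background and merging, the window size and the autosome used. Named peaks are the 10 highest by −log10 q, fold or pileup, all within 3 kb of a TSS, symbols with 3 or more peaks, pairs within 1 kb and members of the gene lists by their closest peak. Other peaks named by position, such as those beside the long stretches without a peak, and listed genes without a peak were chosen after their values were seen. The chromosome and the lists were chosen with earlier results of these data known. Peak sequences were not used here. One peak that the rule for named peaks takes is not reported here.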

Additional observations from a re-analysis of the deposited data

How the results depend on the processing

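No paired analysis was possible because the deposited values come from pooled libraries, and for the same reason no replicate could be left out. The density ratio kept its direction and its call under all alternatives run, at 0.321 to 0.396 under the planned ones and, in alternatives chosen after seeing the data, at 0.413 with the background at the floor only, 0.396 per coding gene and 0.391 over the first 70 Mb. The share of peaks of at least 150 bp also kept its direction and missed the threshold throughout, with odds ratios of 0.662 to 0.958. The number of Z peaks fell to 125 at a −log10 q of 2, 68 at 3, and 138 with the background at the floor. Other values moved as follows, and the cause was not tested. The odds ratio within 3 kb turned to 0.996 without high IgG background and 0.956, 0.947 and 0.701 against chromosomes 3, 4 and 5. Within 10 kb it turned to 1.24 at a −log10 q of 2 and of 3, and 1.15 against chromosome 2. Within 100 kb it turned to 1.12 at a −log10 q of 2, 1.05 at a fold of 3, 1.04 without high IgG background, and 1.23 and 1.17 against chromosomes 1 and 4, and passed the threshold at 0.588 against chromosome 5 (Fisher's exact test, adjusted p = 0.0456). For pileup it turned to 0.915 without high IgG background and 0.953 and 0.943 against chromosomes 1 and 3, and passed at 1.69 with a threshold of 13. For the floor it turned to 0.926 at a −log10 q of 3 and passed at 1.43 with a fold of 3, 1.58 without high IgG background and 1.54 against chromosome 1 (Fisher's exact test, adjusted p = 0.0409, 0.00986 and 0.0155). For high IgG background it lost the call at 1.79 at a −log10 q of 3, 1.20 against chromosome 1 and 2.04 against chromosome 3 (Fisher's exact test, adjusted p = 0.495, 0.790 and 0.0619). Unevenness per degree of freedom lost its call at 1.72 with a −log10 q of 2, 1.05 with 3 and 1.17 over the first 70 Mb. Depth limits the tall classes, with 10 and 14 Z peaks at pileups of 20 to 39 and of 40 or more.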

Other observations

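MicroRNA loci were nearest to 9 Z peaks with no gene symbol beside them. With those joined to a gene symbol, microRNAs were named for 5.02% of Z peaks and 3.99% of those on chromosomes 1 to 5. The peak 21195 bp from gga-mir-9-2, a microRNA of neural progenitors, and the peak 61149 bp from gga-mir-23b each had 10 fragments and a fold of 4.79. Among microRNAs with no gene symbol beside them, gga-mir-7440 and gga-mir-1779 had the closest peaks, at 8553 and 4265 bp, with folds of 3.48 and 3.09. The peak joined to LYRM7 and gga-mir-1456 covered a TSS. gga-mir-6651 had 2, at 62458 and 103190 bp, with folds of 3.36 and 5.66. The nearer one had 38 fragments over 10.6, a high IgG background. Small RNA families RF00003 and RF00026 had 2 Z peaks each of 15 and 40 in the whole list, and RF02271 had 5 of 107. Of all 8375 listed peaks, 239 lay on Z, and these counts are too small to set apart from that share.

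The 3 peaks of chromosome W had pileups of 237, 684 and 1256 fragments, each above the highest pileup of Z, 107. Their backgrounds were 97.3, 593 and 807 fragments and their folds 2.42, 1.15 and 1.56. They lay 5759, 17388 and 160408 bp from the nearest TSS.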
